A study of Penicillium oxalicum with 15 samples.

Results

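The genes described here form a module of 77 genes of Penicillium oxalicum, out of 9512 identifiers listed in at least 1 library. Their mean RNA level was higher on the carbon source WR than on WB in strain EU2101, and lower in strain MuPOX03016 than in strain MuKu70. They were chosen from FPKM, the number of fragments relative to gene length and library depth, with an unlisted gene taken as 0, as ratios of group means with 1 added to each. The ratio of MuPOX03016 over MuKu70 had to be at most 0.5, with all 3 MuPOX03016 libraries below all 3 MuKu70 libraries and a MuKu70 mean of at least 10 FPKM. The ratio of WR over WB in EU2101 had to be at least 2, and single WR and WB libraries were allowed to overlap. Only identifiers whose estimated counts lay within 0.01 of whole numbers in the 6 MuPOX03016 and MuKu70 libraries were taken, since fractional counts can come from reads split between similar genes. MuPOX03016 against MuKu70 and WR against WB, the contrasts of the choice, are given for these genes as a description, without a test. The tested comparisons pair the groups in ways that the choice did not, but each has at least 1 group whose level entered it.

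The libraries came from mycelium in solid-state fermentation, a culture on damp solid substrate with hardly any free water, kept still at 28 °C for 5 days. The 5 groups of 3 libraries were MuPOX03016 on WR, MuKu70 on WR, and EU2101 on WR, on WB plus AV and on WB. The labels do not spell out WB, AV and WR, and they also write WA for AV and WB_RS for the WR of EU2101. POX03016 is a gene of this species, and Ku70 joins broken DNA ends in fungi, where its loss is often used to make gene deletion easier. The labels give neither the way the mutants were made nor whether MuPOX03016 also lacks Ku70, and they do not say whether replicates were separate cultures, so the p-values weigh only the spread between these libraries, which may be technical.

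Fungi that live on plant material sense which sugars and polymers surround them and switch whole sets of genes through transcription factors, among them the genes of secreted enzymes that cut cellulose and hemicellulose and of the transporters that take up the products. The design text of the series states the search for transcription factors of cellulase and hemicellulase genes in this fungus as its aim. In filamentous fungi, genes of one pathway often lie side by side on a chromosome and are switched together. None of the 9512 identifiers matched the table of gene names at hand, so the 77 genes are given by identifier alone, with no product or role.

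POX03016 itself stood at 18.5, 19.9 and 17.9 FPKM in MuPOX03016, against 87.4, 139 and 88.9 FPKM in MuKu70, and the groups did not overlap. Summed estimated counts ran between 1782848 and 7335888 per library, and the 6 mutant libraries were the deeper ones. Replicate 1 of WB stood apart from the rest of its group. Over the 77 genes, its log2 values correlated at r = 0.885 and 0.859 with replicates 2 and 3 of WB, which correlated at 0.927 with each other. Over all genes these correlations were 0.900 and 0.904, and 0.962, so that it stood apart there too. WB replicate 1 held the highest WB value for 65 of the 77 genes. For 55 of the 77 its value was at least 2 times the mean of the other WB replicates. The same counts over all genes are not given here. Values that rest on WB are therefore given with and without it, apart from those at the limits of the choice.

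The median over the members was high on WR in both MuKu70 and EU2101 and lower in the other groups. Single members departed from this, and in 22 the MuPOX03016 mean was above the EU2101 mean on WR. The median FPKM over the 77 genes was 26.1, 29.5 and 23.7 in the MuPOX03016 libraries and 107, 108 and 80.5 in the MuKu70 libraries. In EU2101 it was 89.6, 85.8 and 84.7 on WR, 38.9, 24.7 and 27.7 on WB plus AV, and 37.1, 9.06 and 10.5 on WB. Each MuPOX03016 library thus lay below each MuKu70 library and within the range of the 6 EU2101 libraries on WB plus AV and WB. Strain and file batch coincide between MuPOX03016 and EU2101, so the second of these places is not free of the files. The choice of genes fixed the order of MuPOX03016 and MuKu70 and that of WR and WB, but not the place of WB plus AV or the order of MuKu70 and EU2101 on WR. The 77 genes took 0.983% ± 0.261 of all FPKM in MuPOX03016 and 3.32% ± 0.086 in MuKu70 (SD, n = 3 each). Without POX03935, the most abundant member in MuKu70, the shares were 0.572% ± 0.048 and 1.97% ± 0.083.

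**Figure D1:**
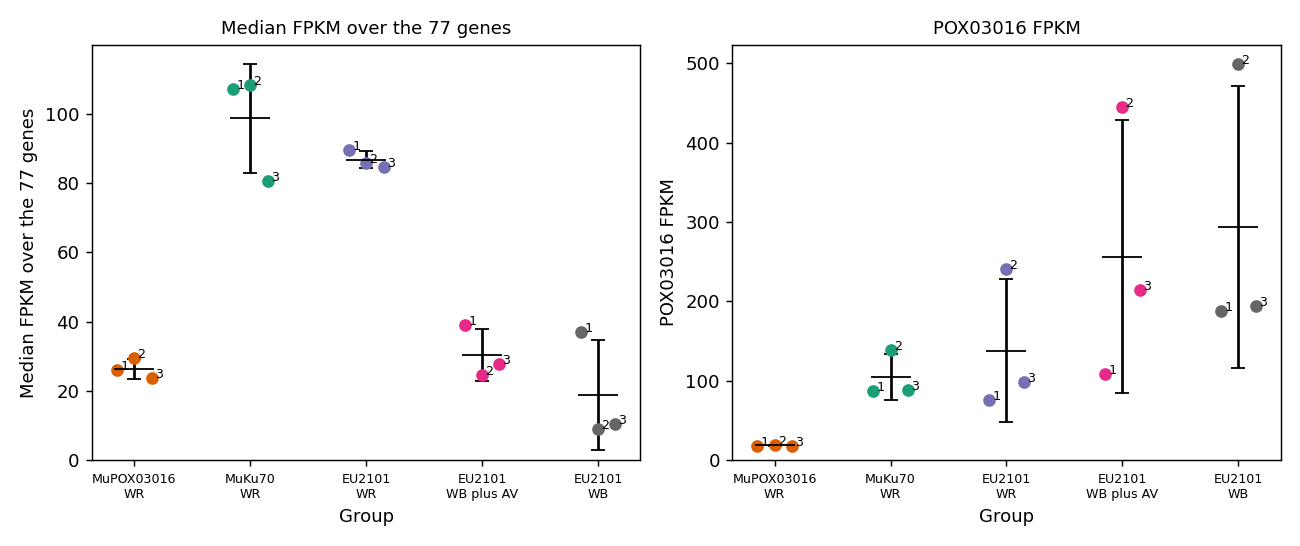
Median FPKM over the 77 genes (left) and FPKM of POX03016 (right) in each of the 15 libraries, which are numbered by replicate; long horizontal lines are group means and vertical bars are 1 SD (n = 3). WB replicate 1 lies at 37.1 FPKM on the left, above the other WB libraries at 9.06 and 10.5, and the MuPOX03016 libraries lie lowest on the right.

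The loss in MuPOX03016 was partial for nearly all of the 77 genes. The share of the MuKu70 mean left in MuPOX03016 ran between 0.605% and 49.6%, with a median of 31.3%, and 47 genes kept at least 25%, 28 kept between 10% and 25%, and 2 kept less. Those 2 were POX07751 and POX03902. POX07751 was read 0, 1 and 1 times in the MuPOX03016 libraries, at 0, 0.60 and 0.63 FPKM, against 54.9, 139 and 9.19 FPKM in MuKu70. Its counts per total count were 170 times higher in MuKu70, with a 95% interval of 46.7 to 1409 that covers counting error only. The interval is no test, as this contrast was part of the choice. It also leaves out the wide spread of the 3 MuKu70 libraries, which had between 14 and 231 counts. POX03902 kept 8.08%, at a mean of 6.18 FPKM in MuPOX03016 against 76.5 FPKM in MuKu70.

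Among the 8 members with the highest MuKu70 means, POX03413 kept least, 10.6%, at 67.2, 162 and 57.2 FPKM in MuPOX03016 against 937, 955 and 800 FPKM in MuKu70. Every MuPOX03016 library of POX03413 was below every MuKu70 library by a wide gap. POX04244 kept 10.1%, POX09468 12.9%, POX05887 13.6%, POX05888 15.4% and POX03532 18.5% of the MuKu70 mean.

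In EU2101, the WR over WB ratio ran between 2.002 and 37.4 with a median of 4.03, and 38 genes lay under 4, 31 between 4 and 8, and 8 at 8 or more. Without WB replicate 1 the median was 6.26, within a range of 1.82 to 43.8. POX02284 had the highest ratio, at 71.2, 59.4 and 73.8 FPKM on WR against 0, 2.55 and 0 FPKM on WB, where 1 count was read in all. Its counts per total count were 99.7 times higher on WR, with a 95% interval of 17.6 to 3963 for counting error only. This interval is no test either, as WR over WB was part of the choice. POX02284 was thus all but unread on WB. POX05866 reached 1213, 1392 and 1180 FPKM on WR, against 251, 33.4 and 29.3 FPKM on WB, and its ratio of 11.98 became 39.0 without WB replicate 1. POX05888 likewise had a ratio of 11.5 with that library and 43.8 without it. In the edgeR fits of EU2101 below, 68 members passed the filter on low counts, and the other 9 did not: POX00723, POX00943, POX03902, POX03933, POX03934, POX08445, POX08499, POX09132 and POX09615.

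**Figure D2:**
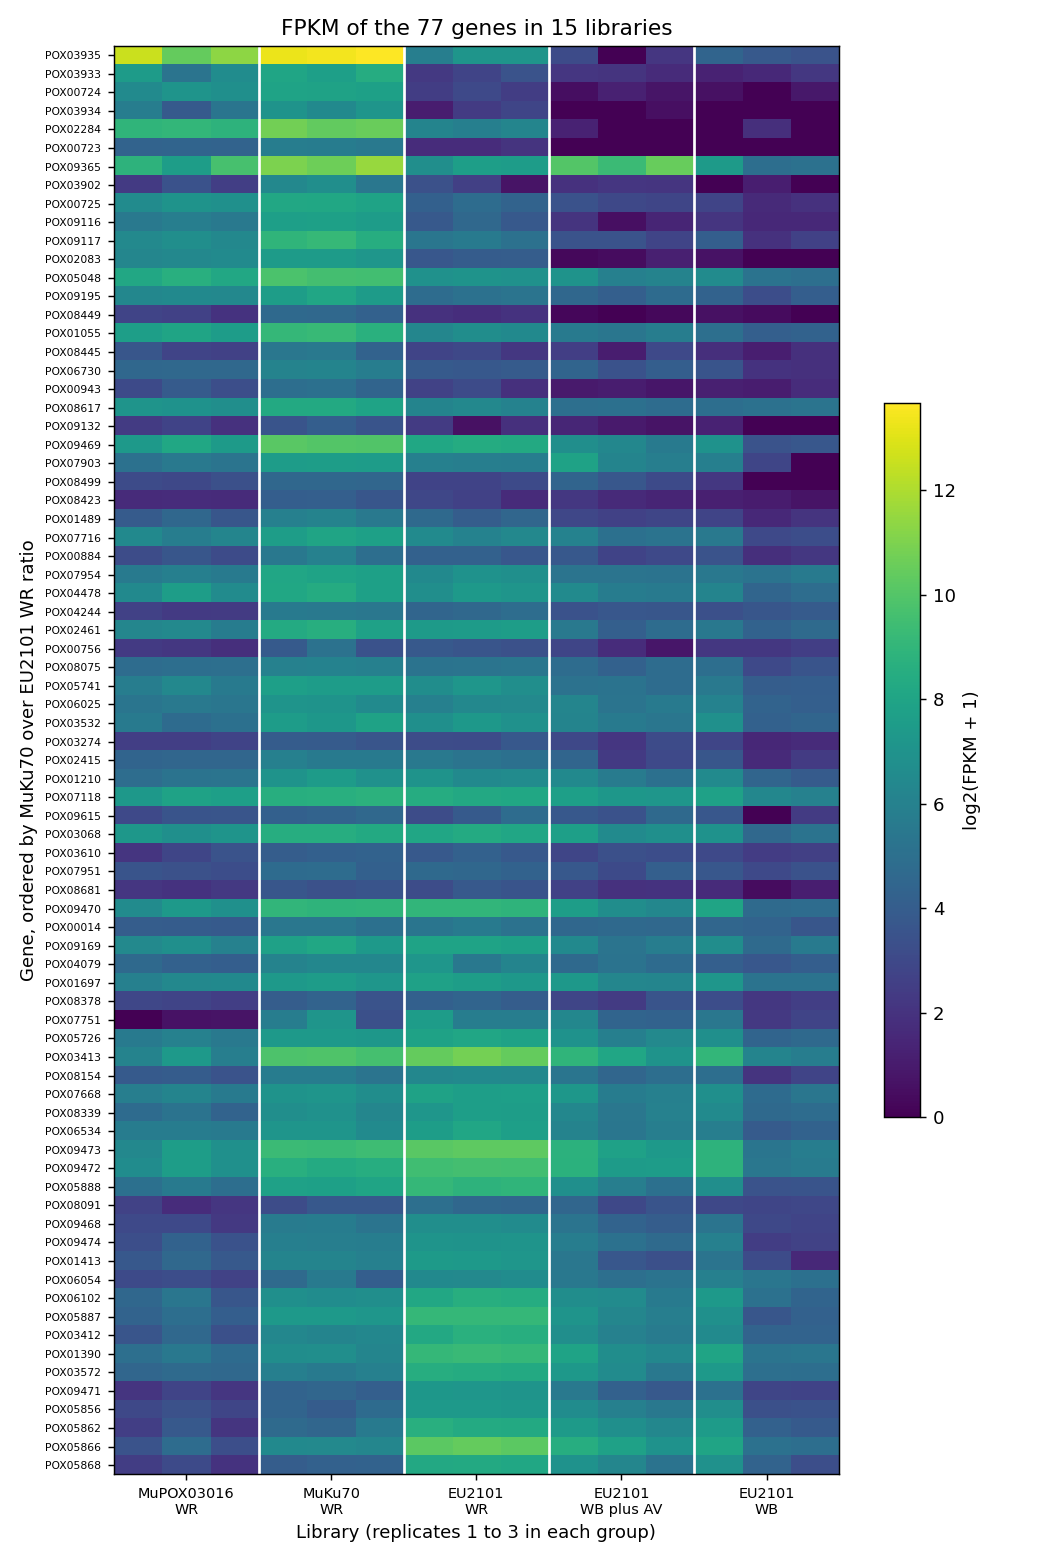
Heat map of log2(FPKM + 1) for the 77 genes (rows, from the highest to the lowest MuKu70 over EU2101 ratio on WR) in the 15 libraries (columns, 3 replicates a group). All 3 MuPOX03016 columns are darker than the MuKu70 columns in every row, as chosen; the upper rows are brighter in MuKu70 than in EU2101 on WR, and the lowest rows are the reverse.

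The WB plus AV libraries were not used in the choice, while a low WB level was favoured by it, so that positive differences from WB are not free of the choice. Of the 68 members tested with edgeR's quasi-likelihood test, 2 rose on WB plus AV against WB at an adjusted p under 0.05 and 0 fell, where 0.681% of all genes tested rose and 0.495% fell. At an unadjusted p under 0.05 there were 13, near the 17.9% of all genes tested. The members' median log2 fold change was 0.63, a factor of 1.55, beside 0.01 over all genes tested, and 59 of the 68 had a positive one, as did 50.7% of all genes tested.

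Of the 2 members that rose, POX09365 had the larger change. It stood at 1018, 633 and 1417 FPKM on WB plus AV, against 175, 30.1 and 33.5 FPKM on WB, with no overlap between the groups. The log2 fold change was 3.74 ± 0.62 (SE; edgeR, adjusted p = 0.0256). POX01055 had 47.0, 39.9 and 53.8 FPKM on WB plus AV, against 30.3, 16.6 and 18.4 FPKM on WB, also without overlap, with a log2 fold change of 1.09 ± 0.20 (SE; edgeR, adjusted p = 0.0367). Both calls ended when replicate 1 or 3 of the WB plus AV group, or replicate 2 or 3 of the WB group, was left out, and that of POX01055 also ended without replicate 2 of WB plus AV. Without WB replicate 1 the log2 fold changes were 4.84 for POX09365 (edgeR, adjusted p = 0.000152) and 1.27 for POX01055 (adjusted p = 0.00244), and POX07903 then had a larger one, 5.21 (adjusted p = 0.00455). POX08499 also passed without that library (edgeR, adjusted p = 0.00895), with no count left on WB and hence no fold change given.

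The count for WB plus AV changed most when WB replicate 1 was left out. Without it, 40 of the 72 members tested rose, where 11.1% of all genes tested rose, and the members' median log2 fold change was 1.42. In 55 of those 72 genes every WB plus AV library then lay above the 2 remaining WB libraries, as it did for 30.3% of all genes tested. With all WB libraries, 7 of 68 members had no overlap and were higher, beside 5.79% of all genes tested. With the replicate number as a block, 5 members rose, beside 2.95% of all genes tested. WB replicate 1 lay within the range of the 3 WB plus AV libraries for 40 of the 77 genes and above all 3 WR libraries for 0 of them, without the same counts over all genes. A place above all WR libraries was made unlikely by the choice, since this library is part of the WB mean. The part of that library in the result beyond these values was not tested.

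Set against WB plus AV, WR gave higher levels for many members. Of the 68 members tested, 27 were higher on WR and 1 was lower in edgeR, where 3.24% of all genes tested were higher and 1.84% lower. The median log2 fold change was 1.56, a factor of 2.95, beside -0.01 over all genes tested. All 3 WR libraries lay above all 3 WB plus AV libraries for 57 of the 68, beside 13.4% of all genes tested. The members had been chosen for high WR values, so the WR side of this comparison is not free of the choice, and the comparison shares its WB plus AV libraries with that of WB plus AV against WB. With the replicate number as a block, 50 members were higher, beside 5.99% of all genes tested, and 1 was lower, beside 4.81%. Without WB plus AV replicate 1, 2 or 3, the members that were higher numbered 25, 13 and 12, beside 2.96%, 1.33% and 1.26% of all genes tested. Without WR replicate 1, 2 or 3 they numbered 13, 13 and 15, beside 1.31%, 1.58% and 1.58%.

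The largest differences between WR and WB plus AV were in genes that were little read on WB plus AV. POX02284 had 71.2, 59.4 and 73.8 FPKM on WR, against 1.48, 0 and 0 FPKM on WB plus AV. That is 157 counts on WR against 1 count on WB plus AV, a ratio per total count of 119 with a 95% interval of 21.1 to 4747 for counting error only (adjusted p = 0.00106 in edgeR). POX02284 was thus all but unread on both WB plus AV and WB.

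POX03935 had 56.6, 137 and 140 FPKM on WR, against 7.73, 0 and 3.51 FPKM on WB plus AV, a log2 fold change of 4.76 ± 0.58 (SE; edgeR, adjusted p = 0.00231). POX02083 had 12.3, 14.6 and 15.1 FPKM on WR, against 0.22, 0.38 and 1.29 FPKM on WB plus AV, a log2 fold change of 4.46 ± 0.52 (SE; edgeR, adjusted p = 0.00197). POX09116 had 12.9, 23.8 and 13.3 FPKM on WR, against 3.10, 0.47 and 1.62 FPKM on WB plus AV, a log2 fold change of 3.19 ± 0.44 (SE; edgeR, adjusted p = 0.00343). In all 3 genes every WR library lay above every WB plus AV library. POX08449 had 47 counts on WR against 2 on WB plus AV, a ratio per total count of 17.9 with a 95% interval of 4.68 to 152 for counting error only (adjusted p = 0.00851 in edgeR), and limma on log2(FPKM + 5) did not call it, with an adjusted p of 0.0533. POX00723 was read on WR alone among the EU2101 groups, and was at least 1.85-fold higher there than on WB plus AV and at least 1.60-fold higher than on WB, against a floor of 3 counts per library.

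POX09365 was the exception. It stood at 108, 200 and 187 FPKM on WR, against 1018, 633 and 1417 FPKM on WB plus AV, with a log2 fold change of -2.56 (edgeR adjusted p = 0.0350, SE 0.59). Its WR libraries all lay below its WB plus AV libraries. This call was lost when any 1 of the 6 libraries was left out, with adjusted p up to 0.164, and in limma on log2(FPKM + 1), at 0.0671. Over the 77 genes, the WB plus AV mean lay between the WB and WR means in 62, below the WB mean in 11 and above the WR mean in 4, and it was nearer to the WB mean than to the WR mean in 70. Without WB replicate 1 these counts were 64, 9, 4 and 65. The choice set the WR mean apart from the WB mean, which makes a place between them more likely. The same counts over all genes are not given.

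**Figure D3:**
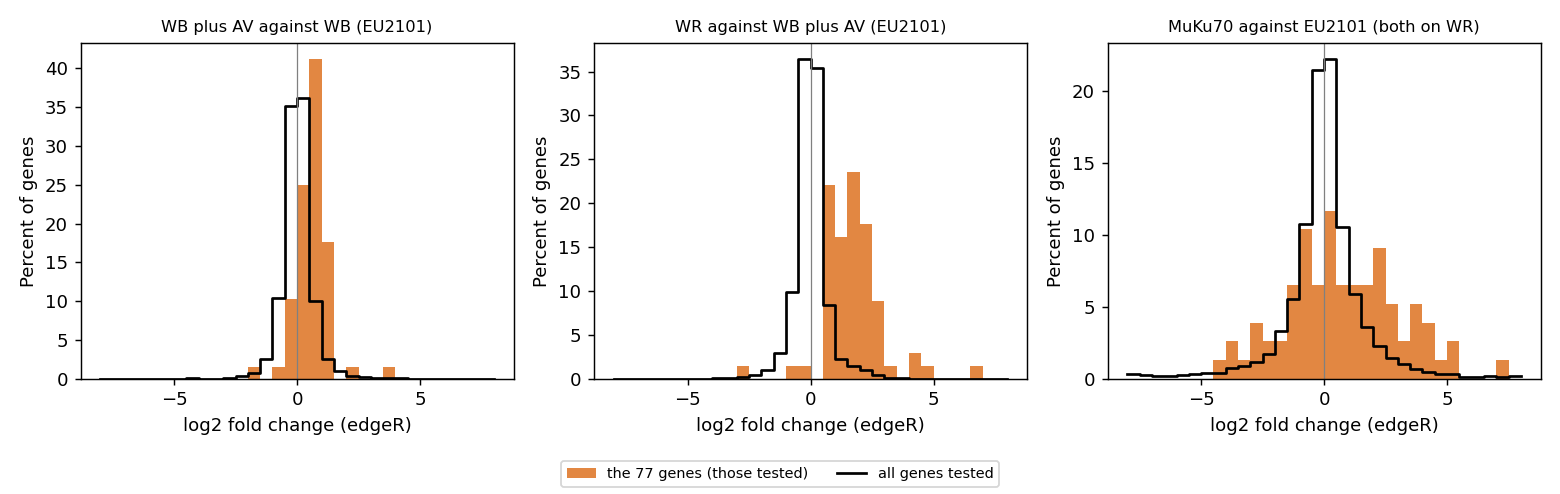
Percent of genes in bins of 0.5 of the log2 fold change (edgeR), for the members that could be tested (68, 68 and 77, filled bars) and for all genes tested (black line), in WB plus AV against WB, WR against WB plus AV, and MuKu70 against EU2101 on WR. The members' medians are 0.63, 1.56 and 0.53, beside 0.01, -0.01 and -0.01 for all genes tested.

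MuKu70 and EU2101 were both grown on WR, and the 77 genes were spread widely between these strains. The choice favoured high levels in both groups, with a minimum level in MuKu70 alone, so that the balance of higher and lower members is not free of it. In edgeR, 40 members were higher in MuKu70 and 22 lower, and 15 did not pass, where 31.5% of all 8287 genes tested were higher and 31.3% lower. The log2 fold changes ran between -4.16 and 7.39, with a median of 0.53 beside -0.01 over all genes tested. In FPKM, 12 members were at least 10 times higher in MuKu70, 3 at least 10 times higher in EU2101, and 30 within a factor of 2. The highest of the 5 group means was in MuKu70 for 46 members and in EU2101 on WR for 31. These counts by FPKM and by highest mean are not given over all genes, and the minimum level in MuKu70 bears on them too. Strain and file batch coincide in this comparison and cannot be told apart.

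Gene lengths behind the values differed between the mutant and the EU2101 files for part of the genes. Of the 71 members whose effective length could be read from counts and FPKM in both, 54 had the same length apart from a common shift and 17 were longer in the mutant files. Over those 54 alone, 22 members were higher in MuKu70 and 20 lower, beside 18.4% and 34.6% of the 5192 genes of like length tested, and the members' median log2 fold change was 0.08 beside -0.15 for those genes. In limma on log2(FPKM + 1), 36 members were higher in MuKu70 and 24 lower, and over all genes 1850 were higher and 2771 lower.

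POX03935 was the most abundant member in MuKu70 and had the largest log2 fold change between the strains. It stood at 9757, 11025 and 13046 FPKM in MuKu70, against 56.6, 137 and 140 FPKM in EU2101 on WR, a log2 fold change of 7.39 ± 0.37 (SE; edgeR, adjusted p = 1.9e-06), though its length differed between the files. In MuPOX03016 it still reached 6214, 1397 and 2572 FPKM, below each MuKu70 library and above every EU2101 library. Its neighbours in number, POX03933 and POX03934, had log2 fold changes of 5.29 and 4.86 between MuKu70 and EU2101, and POX00724 and POX02083 had 5.38 and 4.50. Their adjusted p-values in edgeR were at most 1.73e-05, and the length of POX02083 differed between the files, while that of POX03934 could not be read in EU2101.

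At the other end were genes far higher in EU2101. POX05866 had 88.4, 84.1 and 76.3 FPKM in MuKu70, against 1213, 1392 and 1180 FPKM in EU2101 on WR, a log2 fold change of -3.99 ± 0.13 (SE; edgeR, adjusted p = 4.49e-07) with the same gene length in both. POX05868 had 15.5, 18.0 and 18.8 FPKM in MuKu70, against 302, 318 and 279 FPKM in EU2101 on WR, a log2 fold change of -4.16 ± 0.11 (SE; edgeR, adjusted p = 3.07e-07). The loss in MuPOX03016 was thus read, for such genes, on a MuKu70 level far under that of EU2101, and for POX03935 on one far above it. Across the module, the MuPOX03016 mean was under the EU2101 mean on WB for 27 members, above the EU2101 mean on WR for 22, and between them for 28. Without WB replicate 1 these counts were 16, 22 and 39. Strain and file batch coincide between MuPOX03016 and EU2101 as well.

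Of the 77 genes, 21 fell into 7 runs of identifiers whose numbers lay within 2 of each other. For 13 of the 77 genes (16.9%) the next number was a member too, while members are 0.81% of all identifiers. Of the 5697 identifiers with whole counts and at least 10 FPKM in MuKu70, the 77 members are a larger share. The share of such neighbours in other sets of genes is not given. The files give no positions, and whether numbers follow the order on the chromosomes is not stated in the sources used here. The longest run held 7 members, POX09468 to POX09474, without a gap. Of their MuKu70 level, 12.9% to 38.2% was left in MuPOX03016, and their WR over WB ratios in EU2101 were 4.08 to 8.95, and 14.2 to 25.6 without WB replicate 1. The pairwise correlations of their log2(FPKM + 1) over the 15 libraries ran between 0.36 and 0.99 with a median of 0.91, as a description over 15 libraries of which the choice used 12.

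Levels and the order of the strains both differed within that run. POX09473 stood at 83.0, 198 and 114 FPKM in MuPOX03016, 632, 621 and 698 FPKM in MuKu70, and 1144, 1258 and 1233 FPKM in EU2101 on WR. POX09471 stood at 3.37, 5.87 and 3.40 FPKM in MuPOX03016, 19.2, 21.8 and 16.4 FPKM in MuKu70, and 150, 144 and 132 FPKM in EU2101 on WR. Both were lowest in MuPOX03016 and highest in EU2101 among these groups, without overlap. POX09469 stood at 166, 280 and 173 FPKM in MuPOX03016, 1135, 1025 and 1007 FPKM in MuKu70, and 285, 344 and 312 FPKM in EU2101 on WR. It was thus highest in MuKu70, and its replicate 2 of MuPOX03016 came close to its lowest EU2101 library.

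POX09470 was the member nearest to the mean profile of the module (r = 0.969 over 15 libraries), and it had 94, 170 and 115 FPKM in MuPOX03016, 504, 473 and 483 FPKM in MuKu70, and 502, 520 and 467 FPKM in EU2101 on WR. MuKu70 and EU2101 overlapped for this gene, and the test between them did not pass (log2 fold change -0.06, adjusted p = 0.666 in edgeR). The identifier just before the run, POX09467, met every condition but the level in MuKu70. It stood at 0.95, 0.79 and 0.28 FPKM in MuPOX03016, 10.9, 10.1 and 7.10 FPKM in MuKu70, 21.1, 25.5 and 27.2 FPKM in EU2101 on WR, 7.70, 7.63 and 9.09 FPKM on WB plus AV, and 5.37, 2.53 and 3.73 FPKM on WB. Its groups on WR were apart from each other, and its effective length of 7012 bp was longer than any measured among the members, the longest of which had 4253 bp.

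**Figure D4:**
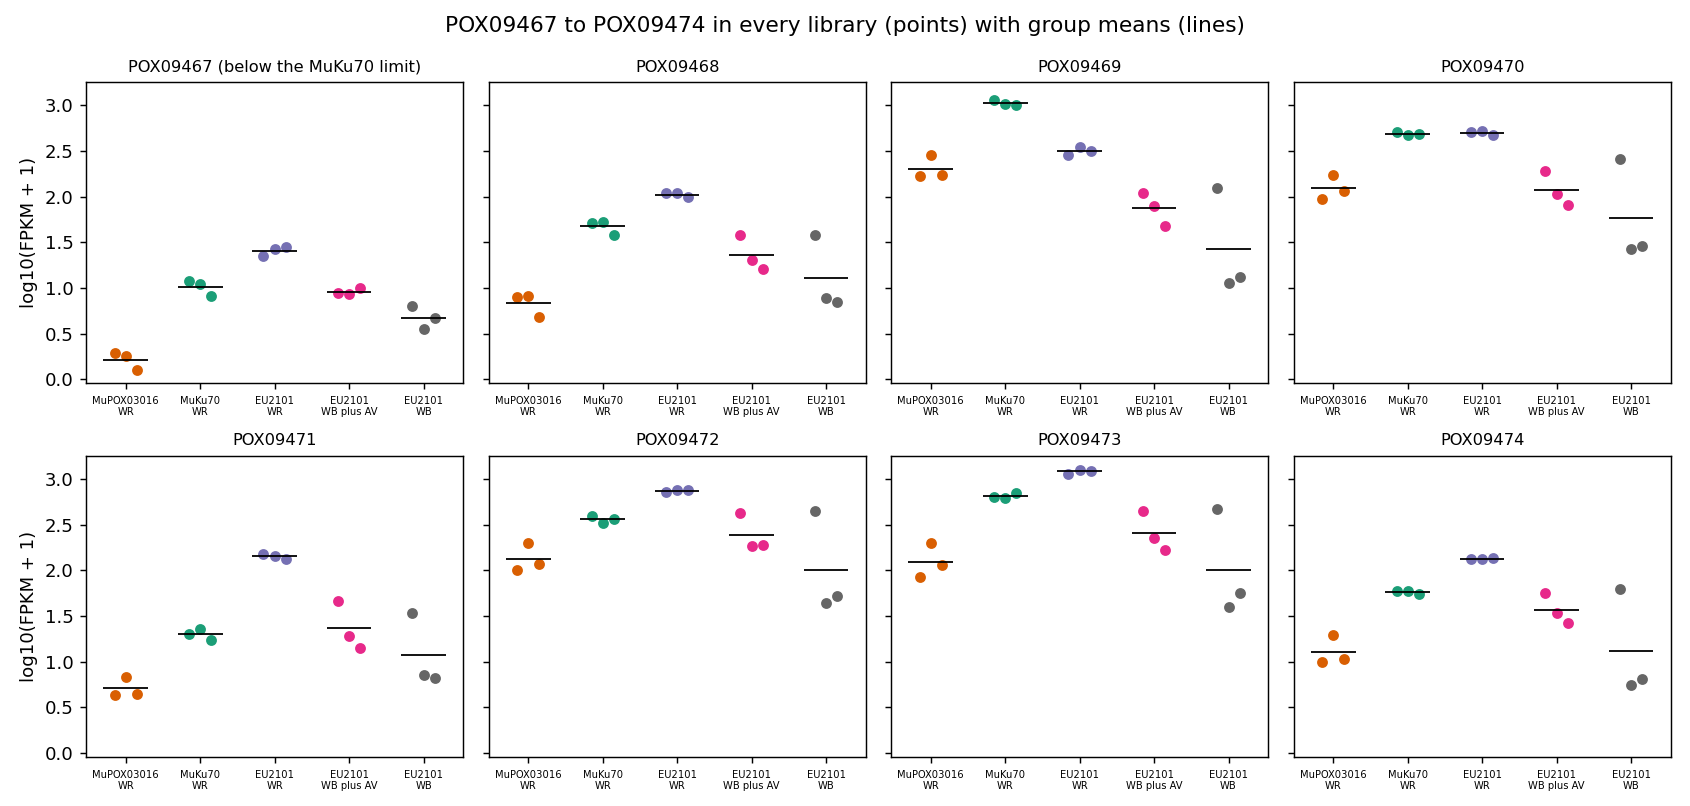
log10(FPKM + 1) of POX09467 and the 7 members POX09468 to POX09474 in every library (points) with group means (lines). In all 8 panels MuPOX03016 lies below MuKu70 and EU2101 on WR lies above EU2101 on WB, and WB replicate 1 lies above the other WB libraries.

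The other runs were short. POX00723 to POX00725 kept 38.8% to 49.0% of the MuKu70 level in MuPOX03016. POX00724, for one, had 92.1, 136 and 111 FPKM in MuPOX03016 and 244, 232 and 215 FPKM in MuKu70, but 4.58, 7.10 and 4.64 FPKM in EU2101 on WR. All 6 mutant libraries of that gene thus lay above all EU2101 libraries. POX00726, the next number, met every condition but that of whole counts, with 92.6 FPKM in MuPOX03016 and 321 FPKM in MuKu70 on average. POX03933 to POX03935 kept 30.1% to 38.9%, POX03412 and POX03413 kept 10.6% and 19.2% in the order POX03413, POX03412, and POX09116 and POX09117 kept 23.8% and 19.4%.

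POX05887 and POX05888 kept 13.6% and 15.4% of the MuKu70 level. POX05888 had 31.5, 46.0 and 29.5 FPKM in MuPOX03016, 229, 218 and 249 FPKM in MuKu70, and 549, 455 and 488 FPKM in EU2101 on WR. Its 3 groups on WR were apart from each other. POX05866 and POX05868 enclosed POX05867, which was no member, with a MuPOX03016 over MuKu70 ratio of 0.84 and a WR over WB ratio of 3.55, or 5.09 without WB replicate 1.

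The pair POX05866 and POX05868 lay in a longer stretch of numbers that was raised on WR. Of the 22 identifiers POX05850 to POX05871, a window set after the values were seen, 20 had a WR over WB ratio of at least 2 (22 without WB replicate 1) and all 22 had a higher mean in EU2101 on WR than in MuKu70, 15 of them by 10 times or more. A MuKu70 mean of 10 FPKM or more was reached by 9 of them, and 9 had a MuPOX03016 over MuKu70 ratio of at most 0.5. The 4 that met every condition were POX05856, POX05862, POX05866 and POX05868, while 6 of the 22 had estimated counts that were not whole. POX05871 was unread in all 6 mutant libraries. The same counts over all genes are not given, and strain and file batch coincide between MuKu70 and EU2101. In edgeR, 31.3% of all genes tested were lower in MuKu70 than in EU2101 on WR.

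**Figure D5:**
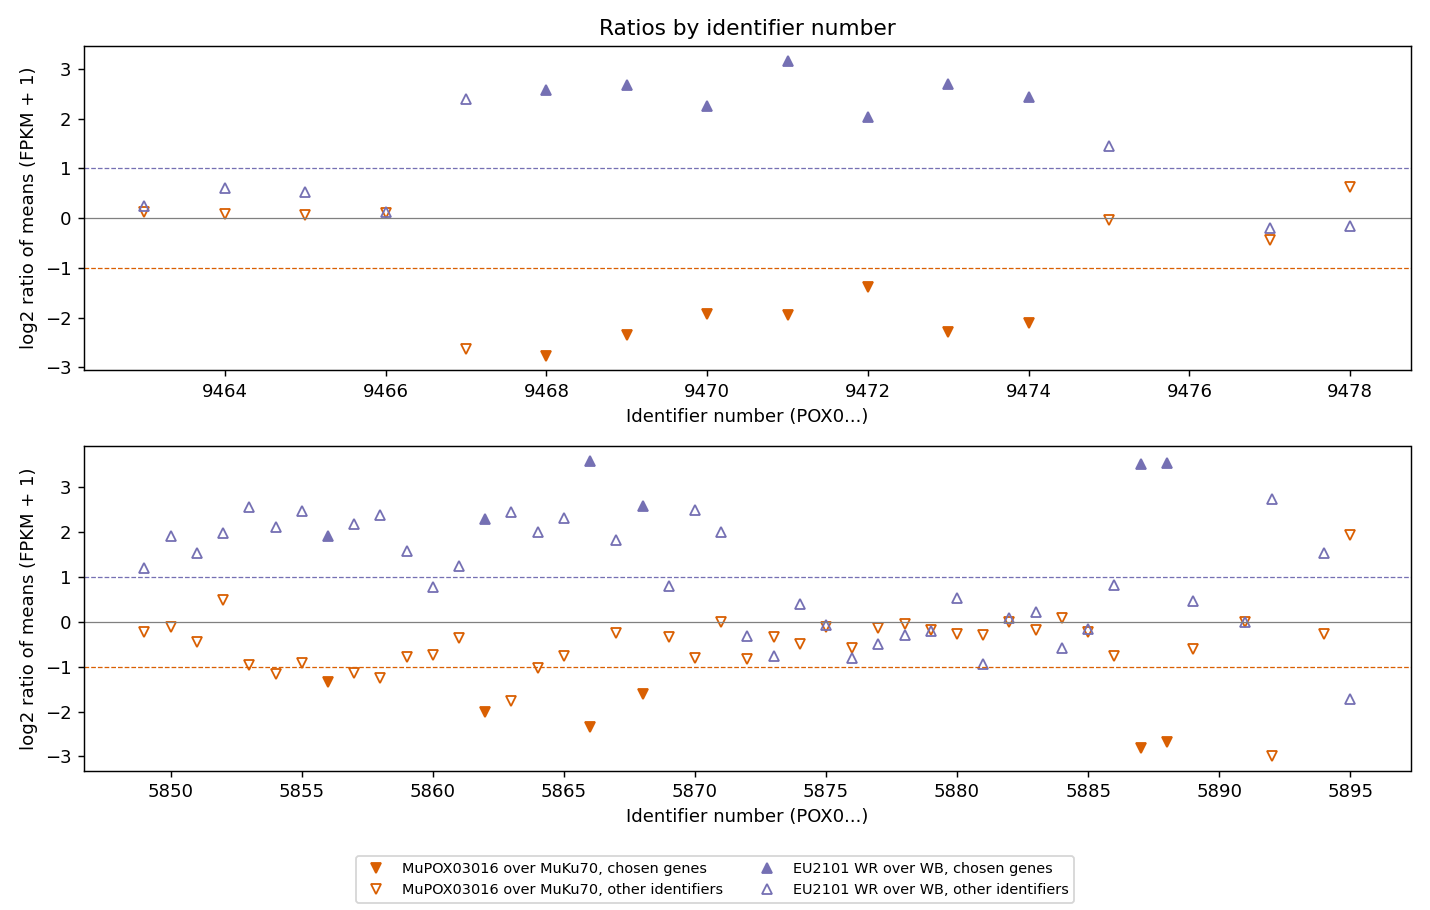
log2 ratios of group means (FPKM + 1) by identifier number, for MuPOX03016 over MuKu70 (downward triangles) and EU2101 on WR over WB (upward triangles), with members filled and other identifiers open; dashed lines mark the limits of the choice at -1 and 1. The ratios pass both limits together at POX09467 to POX09474, while in the lower panel most numbers near POX05850 to POX05871 lie above 1 and only part of them below -1.

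The conditions of the choice narrowed 5697 identifiers with whole counts and at least 10 FPKM in MuKu70 to 212 by the ratio of strains, to 203 by the lack of overlap and to 77 by WR over WB. The 126 genes lost at the last step were lower in MuPOX03016 by the same conditions and had a WR over WB ratio under 2. Of 426 genes raised on WR with the same MuKu70 level and whole counts, 77 are the members. Just inside the limit of 0.5 lay POX02083 at 0.499 and POX09615 at 0.498, and just outside POX05853 at 0.509 and POX06607 at 0.517. Just inside the limit of WR over WB lay POX04244 at 2.002 and POX08445 at 2.03, and just outside POX01412 at 1.99 and POX08447 at 1.96. Just above the MuKu70 limit lay POX08681 at 10.7 FPKM and POX08091 at 11.1 FPKM, and just under it POX08912 at 9.83 FPKM and POX09467 at 9.35 FPKM. A further 12 identifiers met all conditions but that of whole counts.

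The members followed their mean profile unequally. Their correlation with the mean of the standardised log2(FPKM + 1) values over the 15 libraries ran between 0.281 for POX06054 and 0.969 for POX09470, with a median of 0.805, and 12 of the 15 libraries were used in the choice. The 3 identifiers outside the module that came nearest to this profile were POX03269 (r = 0.957), POX04104 (r = 0.953) and POX06284 (r = 0.946). All 3 had counts that were not whole, which the choice favours, since it took genes of such a pattern with whole counts into the module. POX06284 stood at 9.13, 9.04 and 6.88 FPKM in MuPOX03016, against 37.0, 43.4 and 28.6 FPKM in MuKu70. POX04104 had 3.35, 3.42 and 4.05 FPKM in MuPOX03016, against 10.98, 10.1 and 10.4 FPKM in MuKu70. Both missed only the whole counts, while POX03269, at 13.2, 17.2 and 15.2 FPKM in MuPOX03016 against 31.3, 31.2 and 30.4 FPKM in MuKu70, was also less reduced.

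A panel of 12 identifiers, recalled as genes of enzymes that degrade plant biomass in this species and not checked for function here, held 0 members. Members are 0.81% of all identifiers, so that 0 among 12 says little. On MuPOX03016 against MuKu70, 8 of the 12 were higher and 0 lower in edgeR. Of all genes tested, 10.8% were higher there and 599 of 7931 lower. The panel's median log2 fold change was 1.22 beside 0.00 for all genes tested. Between MuKu70 and EU2101 on WR, 1 of the 12 was higher and 11 were lower, with a median log2 fold change of -2.81, where 31.5% of all genes tested were higher and 31.3% lower. Both comparisons share the MuKu70 libraries. In EU2101, 10 of the 12 were higher on WR than on WB in edgeR and 0 lower, with a median log2 fold change of 2.04. Of all 8079 genes tested there, 700 were higher and 615 lower.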

How the data were processed

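Each deposited file lists, for 1 library, gene identifiers with expected counts, which are read counts estimated per gene, and FPKM values, per the file headers. The FPKM values were computed by the authors before deposit from those estimates, gene length and depth, and genes at 0 are not listed. The submitters' processing notes name RSEM 1.2.12, Bowtie2 2.1.0, BWA 0.7.10-r789 and DESeq2, without roles. The sources used here give neither genome build nor annotation. Sample titles gave the groups and replicate numbers.

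Expected counts were rounded and tested on all genes with the quasi-likelihood test of edgeR 4.0.16 (R 4.3.3; low counts removed by filterByExpr at a minimum of 10, libraries scaled by TMM, Benjamini-Hochberg adjustment, threshold 0.05), after a trial on simulated data. The 9 EU2101 libraries were fitted together, and each comparison of strains on its own 6 libraries. Standard errors were derived from the log2 fold change and the root of its F statistic. Effective lengths were read from counts of at least 20 with FPKM of at least 5, and called the same within 20 bp of a common shift of -71 bp. Alternatives were DESeq2 1.42.0, limma 3.58.1 on log2(FPKM + 1) and log2(FPKM + 5) for genes with at least 1 FPKM in 3 libraries, other scalings and filters, a replicate block, and each replicate left out.

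Among listed counts, 13.2% to 14.1% were not whole in the mutant libraries and 0.156% to 0.302% in those of EU2101. All replicates differed by more than sampling noise, with a chi-square of 7.96 to 56.5 per degree of freedom. Deviations from the group means correlated by replicate number at 0.476, 0.437 and 0.299 between WB plus AV and WB. Between WR and WB plus AV they correlated at 0.213, 0.292 and 0.158. The main fits did not use these pairs, and only the alternative with the replicate block did. This pairing comes from the data, as the labels give only the numbers.

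The 77 members, the panel and the tests were chosen with earlier results of these data known. Named genes are the 8 members highest in MuKu70, lowest in MuPOX03016 over MuKu70 or highest in WR over WB, up to 5 called members with the largest change per comparison, members of runs, genes at the limits, and the 3 identifiers most like the mean profile; POX00726, POX05856, POX05862, POX06054, POX07903, POX08378 and the 9 members under the count filter were named after their values were seen.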

Additional observations from a re-analysis of the deposited data

How the results depend on the processing

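The choice of members gave 50 genes with 5 added to each mean in place of 1, and 63 to 93 when 1 library was left out (fewest without WB replicate 2, most without WB replicate 1). For WB plus AV against WB, the 2 calls became 4 with DESeq2, 1 with limma on log2(FPKM + 1) with or without the low-value filter, 5 with the replicate block, 0 with only the 6 libraries concerned and 0 to 40 with 1 library left out. Calls over all genes moved too, from 95 of 8079 to 543 of 9371 with DESeq2 and 71 of 8898 or 65 of 9373 with limma. They were 510 of 8079 with the block, 3 of 7850 with the 6 libraries and 4 to 1769 with 1 library left out. For WR against WB plus AV, the 28 calls became 16 with limma on log2(FPKM + 1) with or without the low-value filter, 51 with the replicate block, 51 with only the 6 libraries concerned and 12 to 25 with 1 library left out. Calls over all genes moved in the same directions, from 411 of 8079 to 250 of 8898 or 243 of 9373 with limma. They were 873 of 8079 with the block, 733 of 8058 with the 6 libraries and 155 to 393 with 1 library left out. The cause of these shifts was not tested. For MuKu70 against EU2101 on WR, the 62 calls became 60 to 63, and 60 to 62 with 1 library left out. They became 42 where only members of like gene length were counted. Over all genes, the 5207 calls became 4557 to 5353. The replicate numbers do not pair these libraries, and the block gave 61 members. Over all genes, limma with median-ratio centring gave 57 higher and 24 lower calls for WB plus AV against WB, beside 55 and 40. Among all called members, the alternatives turned the sign of 1: POX08378 in MuKu70 against EU2101 had a log2 fold change of 1.19 in edgeR, and -0.23, -0.17, -0.18 and -0.23 in the limma fits, none of them called, and its gene length differed between the files. The count filter kept 9 members out of the EU2101 fits, and DESeq2, limma and edgeR without the filter did test them. Intervals and floors cover counting error only.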
